A study of Glycine max with 8 samples.

Results

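The regions described here were stretches of the soybean (Glycine max) genome with a peak in both biological replicates of embryos. The replicates placed the highest point of that peak at different bases. The peaks came from a chromatin immunoprecipitation sequencing (ChIP-seq) study with an anti-peptide antibody against the product of the gene GLYMA.08G357600. A region joined the peaks of the replicate lists that overlapped by 1 bp or more. It was kept where it was at most 1000 bp wide and held exactly 1 peak of each list, and was called displaced where the summits lay more than 100 bp apart. Of 15872 shared regions, 15395 met the conditions on width and peak number, and 1107 of these had displaced summits. The other 14288, with summits at most 100 bp apart, are called concordant and were used for comparison.

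Embryos of the cultivar Williams 82 were taken at mid-maturation from seeds of 200 to 250 mg, and their chromatin was crosslinked and sheared. ChIP libraries, and input libraries of chromatin that saw no antibody, each came from 2 biological replicates sequenced on 2 lanes, 8 libraries in all; whether the replicates were separate batches of plants is not stated. No plant carried a treatment or an altered allele, so the only samples that can be set side by side here are the ChIP replicates. Each had its own peak list, of 21196 peaks in replicate 1 and 18385 in replicate 2, in which both lanes of a replicate appear to have been joined. With 1 list per replicate no test over samples was possible, and regions are not replicates, so differences between displaced and concordant regions are descriptions given in each list.

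In ChIP-seq a bound protein is recovered with the DNA fragments around it. The sequenced fragments pile up over the bound place, and the summit, the base covered by most fragments, is commonly read as the best estimate of where the protein sat. Bound places that lie close to each other can merge into 1 peak that carries 1 summit. Mid-maturation is the stage of seed development at which the embryo fills with storage protein and oil, a programme run by transcription factors that bind DNA. The sequence under these summits and the genes beside them were not analysed here, since no genome of the build of the coordinates was used.

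Displaced summits made up 7.19% of the 15395 regions (Wilson 95% interval 6.79% to 7.61%, for counting error only). The median distance between displaced summits was 131 bp, the quartiles were 113 and 170 bp, and the largest was 637 bp. In concordant regions the median distance was 26 bp, and 170 pairs fell on the same base. Distances formed 1 continuous tail with no gap at the limit. There were 484 regions with distances of 101 to 125 bp, 241 of 126 to 150 bp, 202 of 151 to 200 bp, 127 of 201 to 300 bp, 44 of 301 to 400 bp and 9 beyond. Just inside the limit, 33 regions had summits 101 bp apart, and the median fold enrichment was 5.38 in replicate 1 and 5.71 in replicate 2. Fold enrichment is the authors' value for each peak, (pileup + 1) over (local background + 1) at the summit, where the pileup is the number of overlapping fragments. Just outside it, 27 regions had summits 100 bp apart, with medians of 5.28 and 5.88, so values did not step at the limit. The strongest region at 101 bp, on chromosome 2 from 1968199 to 1968879, had folds of 14.7 and 9.31. The strongest at 100 bp, on chromosome 3 from 43940848 to 43941651, had folds of 26.8 and 28.4.

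**Figure D1:**
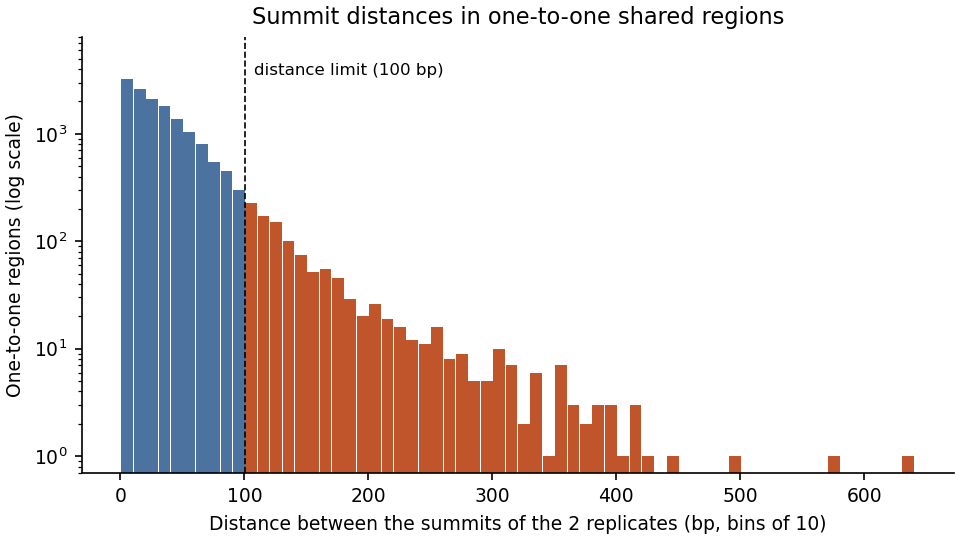
Number of regions with 1 peak of each list and at most 1000 bp wide (log axis) by the distance between the summits of the replicates, in bins of 10 bp. The dashed line marks the limit of 100 bp: 14288 regions lie to its left and the 1107 displaced regions form the tail to its right, which reaches 637 bp.

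The displacement had no preferred direction along the chromosome. The replicate 2 summit had the higher coordinate in 540 displaced regions and the replicate 1 summit in 567, a share of 48.8% for replicate 2 (Wilson 95% interval 45.8% to 51.7%). Among concordant regions with different summit bases the share was 50.1% (interval 49.3% to 50.9%). The summits lay on opposite sides of the centre of the region in 953 of the 1107 displaced regions (86.1%), against 33.8% of concordant ones. The rule largely fixes that contrast, since summits further apart straddle the centre more often.

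Most displaced summits still lay within the peak of the other replicate. In 857 regions (77.4%, interval 74.9% to 79.8%) both summits were inside both peaks. The replicate 1 summit fell outside the replicate 2 peak in 180 regions (16.3%, interval 14.2% to 18.6%), and the replicate 2 summit outside the replicate 1 peak in 115 (10.4%, interval 8.73% to 12.3%). In 45 regions neither summit was inside the other peak. Among concordant regions both summits were inside both peaks in 99.6%. Replicate 2 peaks of displaced regions were the narrower, with a median width of 354 bp against 405 bp in replicate 1, and the part of width in this imbalance was not tested.

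Displaced peaks had less similar extents than concordant ones, but many extents were alike. The peaks of a displaced region overlapped over a median of 288 bp, or 95.5% of the shorter peak, against 348 bp and 100.0% in concordant regions. Their midpoints lay a median of 57 bp apart (quartiles 29.5 and 100.0 bp), against 27.5 bp in concordant regions. In 480 displaced regions (43.4%) the midpoints were at most 50 bp apart, so that the summits differed by more than the peaks as a whole. In 275 (24.8%, against 4.66% of concordant regions) the midpoints were themselves more than 100 bp apart. Starts and ends both agreed within 50 bp in 180 displaced regions (16.3%), against 40.5% of concordant regions.

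Summits more than 100 bp apart in peaks that largely overlap must lie off the middle of at least one of them, so the positions of summits within peaks describe the selection and are no separate trait. The median distance from the summit to the midpoint of its peak was 50.5 bp in replicate 1 and 46.5 bp in replicate 2, against 25.5 and 23 bp in concordant regions. Both summits were more than 50 bp from their midpoints in 261 displaced regions and neither was in 306. The replicate 1 summit alone was that far out in 293, and the replicate 2 summit alone in 247. A summit within 25% of the peak width from an edge was found in 12.6% and 15.8% of displaced regions in replicates 1 and 2, against 2.53% and 2.44% of concordant regions. Which list placed the summit off the middle varied among the members, and neither list did so in all of them.

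The 10 displaced regions with the highest mean rank of fold enrichment over both lists were 593 to 983 bp wide and lay on 8 chromosomes. Their folds were 13.7 to 19.9 in replicate 1 and 16.8 to 24.0 in replicate 2, and their summit pileups were 76 to 128 and 66 to 110. Their summits were 103 to 337 bp apart. The replicate 2 summit had the higher coordinate in 6 and the replicate 1 summit in 4, and in 9 of the 10 the summits lay on opposite sides of the centre. All coordinates are those of the deposited lists, counted from 1, and no source used here names their genome build.

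The first of these lay on chromosome 14 from 3596469 to 3597417. Its fold was 19.2 in replicate 1, with the summit at 3597003, and 22.2 in replicate 2, with the summit 149 bp lower at 3596854. The pileups were 97 and 85 fragments on backgrounds of 4.12 and 2.87. The next lay on chromosome 5 from 5056459 to 5057441, with folds of 17.3 and 24.0, pileups of 128 and 110, and summits at 5057056 and 5056889. Both replicates thus had strong, wide peaks of nearly the same extent there, with the summits 167 bp apart.

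A region on chromosome 19 from 23186495 to 23187470 had folds of 19.9 and 18.0 and summits at 23187058 and 23187200. It was the member of the 10 in which both summits lay on the same side of the centre. Its peak starts were 1 bp apart, at 23186495 and 23186496, and the summits 142 bp. On chromosome 20 from 212605 to 213439 both peaks started at the same base, and the summits, at 213133 and 212796, were 337 bp apart. The folds there were 15.6 and 22.4 and the pileups 125 and 93, on backgrounds of 7.06 and 3.20 fragments. This pair had the widest separation among the 10 and lay at 0.445% of the length of the chromosome.

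Chromosome 20 held a further one from 38664608 to 38665200, with pileups of 80 and 74 fragments and summits 141 bp apart. The region on chromosome 4 from 50168402 to 50169099 had folds of 16.9 and 18.2 and summits 116 bp apart. A similar pair of peaks on chromosome 19, from 47454188 to 47454962, had folds of 16.5 and 17.6 and summits 123 bp apart. The region on chromosome 8 from 18126766 to 18127415 (16.1 and 17.9) had the closest summits of the 10, 103 bp apart. On chromosome 2 from 2030580 to 2031380 the folds were 13.8 and 17.9 and the summits 264 bp apart. The last, on chromosome 11 from 5624511 to 5625356, had folds of 13.7 and 16.8 and summits 128 bp apart. The replicate 2 fold was the higher in 9 of these 10, the exception being the first region of chromosome 19 named above. Strong concordant regions also had higher folds in replicate 2, with a 90th percentile of 19.1 against 17.7 in replicate 1.

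**Figure D2:**
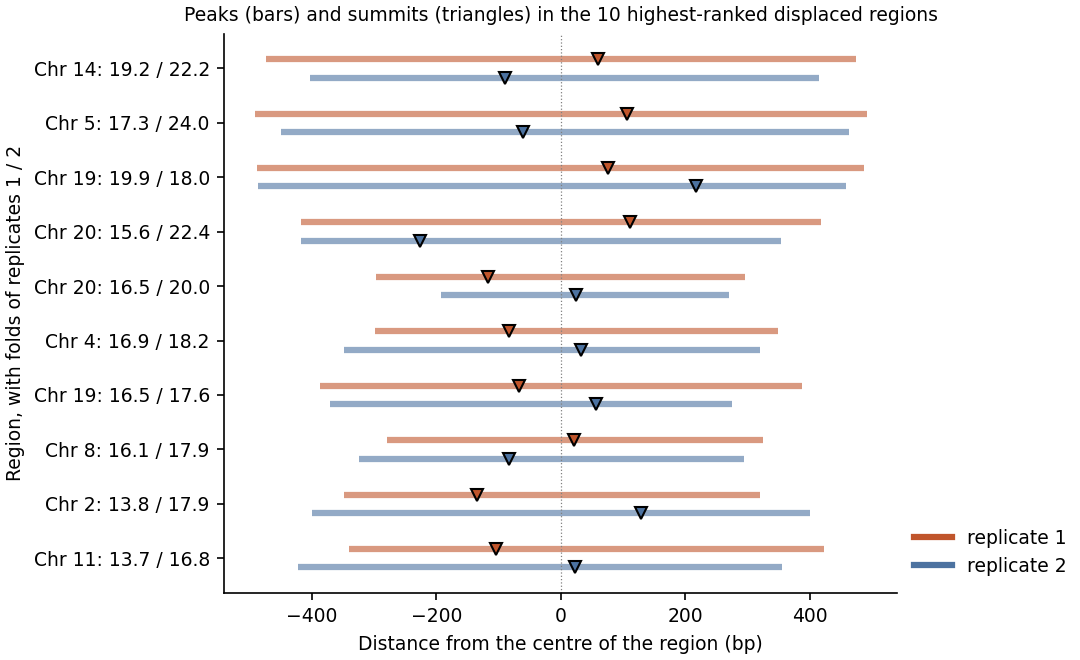
Peaks (bars) and summits (triangles) of replicate 1 and replicate 2 in the 10 displaced regions with the highest mean rank of fold enrichment, by distance from the centre of the region in bp; the folds of replicates 1 and 2 stand at the left. The bars overlap over most of their length in every region, while the triangles are 103 to 337 bp apart.

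Strong displaced regions were few. Only 30 of the 1107 had folds of at least 10 in both lists (2.71%, interval 1.90% to 3.84%), against 24.6% of concordant regions. In all 30 both summits were inside both peaks, and 4 had summits more than 223 bp apart, the width of the narrowest replicate 1 peak. These 30 were wide, with a median region width of 697 bp. Concordant regions whose pileups in both replicates added to 122 fragments or more were wide too, with a median of 634.5 bp. Of the 30, 22 lay in the outer 20% of a chromosome at either end (73.3%, interval 55.6% to 85.8%). That interval covers the 67.8% of concordant regions. In replicate 1 a single member had a fold of 20 or more, on chromosome 20 from 39004562 to 39005528, named after its values were seen. Its fold was 20.7 in replicate 1 and 8.27 in replicate 2, with pileups of 101 and 65 fragments, backgrounds of 3.93 and 6.98 and summits 186 bp apart. In replicate 2 there were 4 such members, all among the 10 above.

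The 5 regions with the most distant summits were not among the 10 of highest rank. Their folds were mostly ordinary for displaced regions, whose medians were 5.08 in replicate 1 and 5.14 in replicate 2. Median folds were 5.16 and 5.22 at distances of 301 to 400 bp, and 5.08 and 4.91 beyond. In the region on chromosome 8 from 9138339 to 9139246 the summits were 637 bp apart, at 9139137 in replicate 1 and 9138500 in replicate 2, with folds of 4.28 and 4.91. The replicate 1 peak ran from 9138824 to 9139246 and the replicate 2 peak from 9138339 to 9139005, so each summit was outside the peak of the other list. A distance of 571 bp followed on chromosome 5, between 37362034 and 37362935, with folds of 5.08 and 5.61. Chromosome 10 had one of 499 bp between 43854768 and 43855577, with folds of 5.10 and 4.27. On chromosome 11 from 33378709 to 33379632, where the distance was 442 bp, the folds were higher, at 10.7 and 10.4, and the peaks overlapped over most of the region. The fifth, on chromosome 14 from 931810 to 932590, had summits 421 bp apart and folds of 5.22 and 7.80.

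In all, 132 displaced regions had summits more than 223 bp apart. That width was taken as the length to which the caller extends a fragment, so no extended fragment covers both summits. The median region width was 679.5 bp among them and the median folds were 4.79 and 5.07. Both summits were inside both peaks in 64 of the 132 (48.5%, interval 40.1% to 56.9%), and neither was inside the other peak in 22.

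Displaced regions had lower fold enrichment than concordant ones in both lists. In replicate 1 the median fold was 5.08 (quartiles 4.17 and 6.17) in displaced and 7.10 (5.26 and 10.8) in concordant regions. In replicate 2 it was 5.14 (4.27 and 6.41) against 7.46 (5.54 and 11.5). The medians differed by -0.48 on the log2 scale in replicate 1 and -0.54 in replicate 2. The members were chosen from the same peaks, so no test is attached to these differences. Median folds also fell with distance within the concordant regions. In replicates 1 and 2 they were 7.95 and 8.31 at 1 to 25 bp, and 5.71 and 5.88 at 76 to 100 bp. Displaced regions at 101 to 125 bp had 5.26 and 5.34, so much of the gap lay toward the closest summits. Spearman's rho between the replicate folds was 0.431 over displaced regions (n = 1107) and 0.809 over concordant ones (n = 14288). These describe regions from the same libraries, and the displaced ones span a narrower range of folds.

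**Figure D3:**
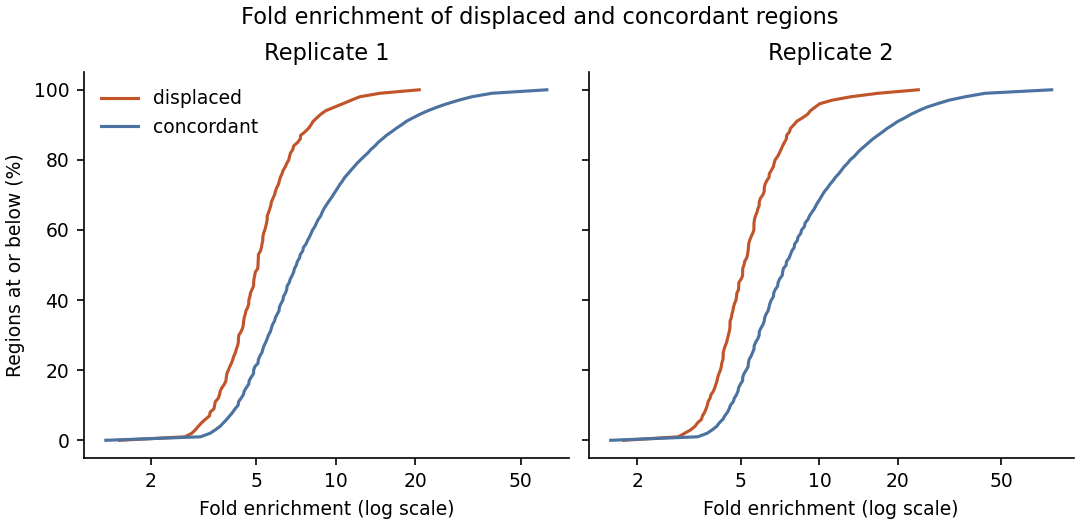
Share of regions (%) at or below each fold enrichment (log axis) in the replicate 1 and replicate 2 lists, for displaced and concordant regions. In both lists the displaced curve lies to the left: its median is 5.08 against 7.10 in replicate 1 and 5.14 against 7.46 in replicate 2.

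The lower folds came with lower summit pileups and lower significance. The median pileup was 28 fragments in displaced and 40 in concordant regions in replicate 1 (log2 difference -0.51), and 22 against 31 in replicate 2 (-0.49). The median −log10 q, the authors' value, was 10.8 against 20.5 in replicate 1 and 8.74 against 17.6 in replicate 2. Displaced summits reached 268 and 227 fragments, and concordant ones 357 and 310. The share of displaced regions decreased across 10 classes of regions ordered by the pileups of both replicates added. It was 19.3% (interval 17.5% to 21.2%) where the sum was 30 to 44 fragments and 14.3% where it was 45 to 49. It was 7.30% at 62 to 68, 3.06% at 80 to 95 and 0.456% (7 of 1535, interval 0.221% to 0.938%) at 178 fragments and above. No class had a higher share than the class below it.

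**Figure D4:**
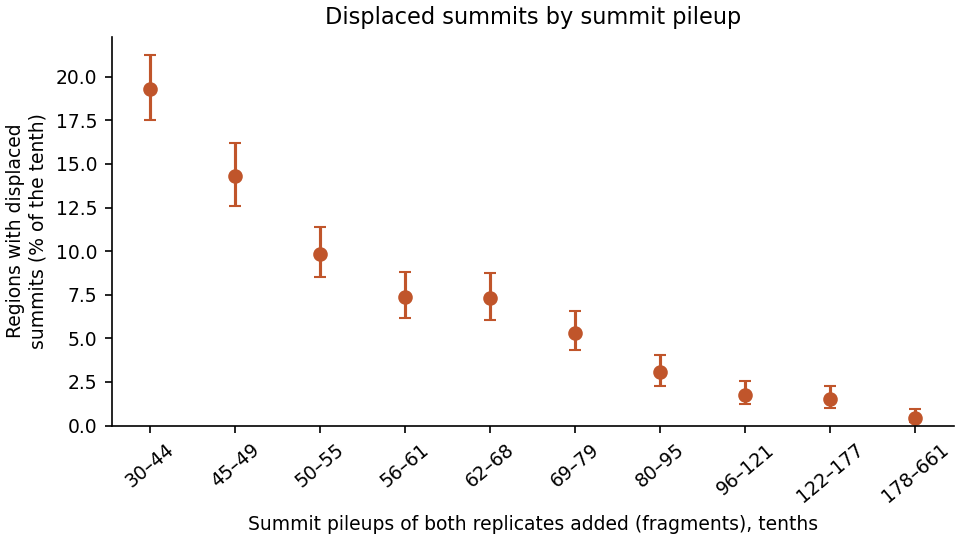
Percentage of regions with displaced summits in 10 classes of near-equal size ordered by the summit pileups of both replicates added (fragments). Points are shares and bars are Wilson 95% intervals for counting error; the share is 19.3% in the lowest class and 0.456% in the highest.

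Region width and pileup together separated regions with few and many displaced summits. Displaced regions were a median of 473 bp wide and concordant ones 445 bp, although a distance of over 100 bp and the limit of 1000 bp both constrain the width. Over 5 width classes the displaced share was 4.77% in regions of 223 to 349 bp and 8.07% to 8.47% in regions of 413 to 1000 bp, a narrow range. Within the lowest of 5 pileup classes, 30 to 49 fragments, it was 7.40% (126 of 1703) in the narrowest regions and 61.1% (58 of 95, interval 51.0% to 70.2%) in the widest. At 50 to 61 fragments it went from 1.55% to 33.3%, and at 62 to 79 from 1.79% to 20.7%. At 122 fragments and above it was at most 1.18% in every width class, and the narrowest classes held only 6 and 19 regions there. Displaced summits thus outnumbered concordant ones in the widest regions of the lowest pileup, and were few in equally wide regions of high pileup. A region spans both of its peaks, so peaks set apart from each other widen it. At 30 to 49 fragments the median region width was 423 bp in displaced and 332 bp in concordant regions. The rise of the share with region width is therefore in part built into the rule.

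**Figure D5:**
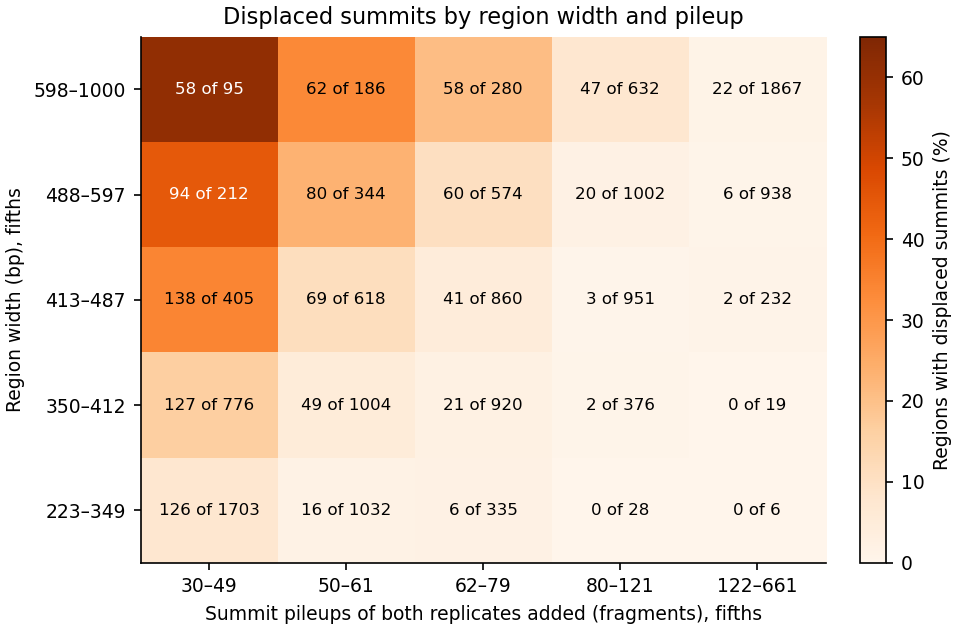
Percentage of regions with displaced summits (colour) in 5 classes of region width in bp by 5 classes of summed pileup in fragments, with displaced regions and all regions of the class written in each cell. The share is 61.1% in the widest regions of the lowest pileup (58 of 95) and 1.18% in equally wide regions of the highest (22 of 1867).

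Single peaks showed the same dependence. Over all regions, displaced peaks were no wider than concordant ones, with medians of 405 against 412 bp in replicate 1 and 354 against 383 bp in replicate 2. Within each of the 5 pileup classes they were wider in both lists. At 30 to 49 fragments the medians were 332 against 285 bp in replicate 1 and 291 against 270 bp in replicate 2. At 80 to 121 fragments they were 623 against 468 bp and 563.5 against 436 bp. Averaged over classes with members as weights, displaced peaks were 61.7 bp wider, where the direct difference was -18.0 bp. The sign also turned with the limits: displaced peaks were 37.8 bp wider at a summit limit of 150 bp, 80.5 bp wider at 200 bp, and 60.0 bp wider among peaks with −log10 q of at least 10. Width bounds the distance that 2 summits can have, so the rule itself favours wide peaks at a given pileup and at wider summit limits. No overall width difference is claimed. The median fold was lower in displaced regions within each of 5 width classes, and the gap was larger in wide ones: 5.91 against 14.8 in replicate 1 and 6.17 against 15.9 in replicate 2 at 598 bp and above.

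The local background, the number of fragments the peak caller expected at the summit, was above its lowest value in somewhat more displaced regions. The lowest background of a list, taken as its genome-wide level, was 3.91 fragments in replicate 1 and 2.74 in replicate 2. A background above it was found in 77.9% of displaced peaks in either list (862 of 1107, interval 75.3% to 80.2%), and in 73.0% and 72.3% of concordant peaks in replicates 1 and 2. The share changed gradually with summit distance and did not step at the limit. In replicates 1 and 2 it was 72.3% and 72.1% at 1 to 25 bp, and 75.8% and 73.3% at 76 to 100 bp. It was 75.2% and 75.6% at 101 to 125 bp, and 80.9% and 76.8% at 126 to 150 bp. Within the 5 pileup classes the share above the lowest background was higher in displaced regions in both lists in each class, by 8.64 percentage points when averaged over classes and lists. Within 5 width classes it was higher in both lists in 4. In the widest class it was lower in replicate 1, at 79.4% of displaced against 80.2% of concordant peaks. In the narrowest class the replicate 1 shares were 66.9% and 66.1%. Both peaks of a region stood on the lowest background in 114 displaced regions (10.3%, interval 8.64% to 12.2%) and 2003 concordant ones (14.0%, interval 13.5% to 14.6%).

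A background above 5 times the lowest was found in both lists at 4 displaced regions (0.361%, interval 0.141% to 0.925%) and 25 concordant ones (0.175%, interval 0.119% to 0.258%), and these intervals overlap. The member with the highest background lay on scaffold_2080 from 2486 to 3139. It had backgrounds of 176 and 104 fragments, pileups of 268 and 227 and folds of 1.52 and 2.17. The region on chromosome 6 from 47117926 to 47118603 had folds of 1.85 and 1.77 with pileups of 248 and 215. The region on chromosome 16 from 6447037 to 6447556 had folds of 1.61 and 2.03 with pileups of 186 and 176. High pileups went with low folds at these 3, which largely follows from their choice by background, since the fold divides the pileup by it. The last, on chromosome 15 from 46435437 to 46435879, had folds of 2.26 and 2.78 with pileups of 77 and 69. In all 4 the replicate 2 summit lay at the lower coordinate, 122 to 157 bp from the replicate 1 summit.

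No displaced region was called different from the usual ratio of the replicate heights, by a test with little reach at these pileups. The median ratio of the replicate 1 to the replicate 2 pileup was 1.30 in displaced regions (quartiles 1.11 and 1.51) and 1.25 in concordant ones. Given the concordant median, 0.0% of all 15395 regions were called different by a two-sided exact binomial test with Benjamini-Hochberg adjustment at 0.05, and 0 of the 1107 displaced ones. Without adjustment 27 displaced regions (2.44%) had an exact binomial p under 0.05, against 2.88% of all regions, a share near the background. With the ratio of 1.41 given by the lowest backgrounds in place of 1.25, these were 42 displaced regions (3.79%) against 6.73% of all regions. Again 0 displaced regions passed adjustment, and the adjusted share of all regions at that ratio is not given here. Displaced regions had fewer fragments than the others, and the part of this in their share of small p was not tested. Of the 27 the replicate 1 pileup was high in 16 and the replicate 2 pileup in 11. The test compares 2 libraries for counting error alone, and in displaced regions the pileups were read at different bases. Median pileups in displaced regions were only 28 and 22 fragments, and adjustment ran over all 15395 regions. The test could therefore miss all but large differences, and the absence of calls does not show equal heights. The SD of the log2 pileup ratio was 0.336 in displaced regions, where counting error alone gives 0.409. In concordant regions it was likewise lower, at 0.303 against 0.347. The test assumes the full counting spread, so it calls too few regions where the spread is smaller.

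The 5 regions with the lowest p, named after their values were seen, had ratios in both directions. The lowest p was on chromosome 20 from 25570744 to 25571185, with pileups of 21 in replicate 1 and 38 in replicate 2 (exact binomial p = 0.00239, adjusted p = 1.0). Pileups of 61 and 25 followed on chromosome 10 from 27516826 to 27517315, and of 85 and 40 on chromosome 4 from 49767422 to 49767974. On chromosome 8 from 43010609 to 43011386 they were 57 and 25, and on chromosome 3 from 19620963 to 19621505 they were 39 and 15. The folds of the last were 6.15 and 3.41, with summits 252 bp apart. None of these passed adjustment.

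Displaced regions occurred on all 20 chromosomes, in shares close to each other. Of the 1107, 1101 lay on chromosomes and 6 on 4 scaffolds. The share of displaced regions per chromosome was 7.14% ± 0.919 (SD, n = 20 chromosomes), and counting error alone gives an SD of 0.947. It was highest on chromosome 19, at 8.96% (66 of 737, interval 7.10% to 11.2%), then on chromosome 18, at 8.64%. It was lowest on chromosome 16, at 4.80% (24 of 500, interval 3.25% to 7.04%). The intervals of 19 chromosomes held the overall share of 7.19%, chromosome 16 being the exception. Chromosome 13 had the most displaced regions, 88, of 1128 regions in all.

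Displaced regions were spread along the chromosomes much as concordant ones. The outer 20% of the length at each end held 71.5% of displaced (787 of 1101, interval 68.7% to 74.1%) and 67.8% of concordant regions (interval 67.0% to 68.6%). The difference was 3.67 percentage points (interval 0.825 to 6.37, counting error only). By chromosome it was positive on 16 of 20 and averaged 3.17 ± 7.84 points (SD, n = 20). Chromosome 13 had the widest gap, 52.3% against 31.8%, and without it the difference was 2.50 points, with an interval from -0.421 to 5.25 that includes 0. On chromosomes 16 and 18 the outer share was lower in displaced regions, by 14.8 and 13.3 points. The displaced share by position was between 6.08% and 8.18% in all 10 segments of the chromosome length, and the middle 20% held 5.90% of displaced and 6.04% of concordant regions.

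Displaced regions had another shared region nearby slightly more often than concordant ones. Another shared region lay within 2 kb of 219 of them (19.8%, interval 17.5% to 22.2%), against 16.9% of concordant regions (interval 16.3% to 17.5%). The median distance to the nearest shared region was 7874.5 bp, against 9648.5 bp. A peak found in 1 list only lay within 2 kb of 9.94% of displaced (interval 8.31% to 11.8%) and 8.55% of concordant regions (interval 8.10% to 9.02%). Displaced regions did not follow each other along the chromosome more than others. The next region with 1 peak of each list was displaced after 6.71% of displaced regions (74 of 1103, interval 5.38% to 8.34%) and after 7.23% of concordant ones.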

How the data were processed

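ChIP-seq and input libraries of mid-maturation embryos were sequenced on 2 lanes per biological replicate. The submitters' processing notes name Bowtie 0.12.7 for alignment and MACS2 for peaks; no source used here gives the MACS2 version and settings or the build. The deposited lists give each peak a start, end and summit, a fold (ratio) over the local background with a pseudocount of 1, the −log10 p and −log10 q values of the caller, and a deposited score, equal to 10 times −log10 q cut to a whole number except at 3 peaks of replicate 1. These are the authors' own values.

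Each peak's pileup and background were solved from its fold and Poisson p; pileups came out whole within 0.01 for 100.0% of peaks of both lists. A background within 0.05% of the lowest of its list counted as the lowest. From the lowest backgrounds, each divided by the narrowest peak (223 and 221 bp), replicate 1 was 1.41 times as deep as replicate 2; total read numbers are not used here. No input list was used, and whether input entered the backgrounds is not stated. The last peak end on a chromosome in either list stood for its length.

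Regions were named by rule: the 10 members of highest mean fold rank, the 5 with the widest summit distance, the 3 of highest background, and regions just inside and outside the limit by mean rank. The region with replicate 1 fold over 20, the 4th of high background and the 5 of lowest binomial p were named after their values were seen. The members, lists and comparisons were chosen with earlier results of these data known. Intervals are Wilson 95% intervals and cover counting error only. Differences of shares carry intervals built from these. The steps were tested on simulated data. Python 3.11.15, numpy 2.4.6, pandas 2.3.3, scipy 1.17.1 and matplotlib 3.10.9 were used.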

Additional observations from a re-analysis of the deposited data

How the results depend on the processing

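Of 74 alternative values, 40 stayed within the error of the value reported, or within 1.5 times the count, 30 moved further in the same direction or toward 0, and 4 turned, all of them the width of peaks. The 40 include the values taken from a single list, which repeat those of each list and are no check of stability. Values below are the number of displaced regions, their share, and displaced minus concordant differences as means of both lists: peak width (reported -18.0 bp), log2 median fold (-0.51), log2 median pileup (-0.50), share of peaks above the lowest background (5.20 points) and outer share (3.67 points). A summit limit of 50 bp gave 4248 regions, 27.6%, -37.5 bp, -0.42, -0.40 and 2.64 points of background. A limit of 150 bp gave 382 regions, 2.48%, 37.8 bp, -0.52 of pileup and 7.51 points. A limit of 200 bp gave 180 regions, 1.17%, 80.5 bp, -0.52, 9.01 points and an outer difference of 6.44 points. The interval of that outer difference, -0.433 to 12.3, includes 0. Fewer regions follow from the stricter limits. Keeping only peaks with −log10 q of at least 10 left 350 regions, 3.39%, 60.0 bp, -0.41, -0.39 and 6.46 points. A width limit of 600 bp gave -0.41, -0.42 and 5.93 points, and an overlap of at least 50% of the shorter peak gave -0.48 for pileup. Regions with both peaks on the lowest background numbered 114, or 5.38%, with an outer difference of 0.465 points (interval -8.91 to 8.76). The interval of the outer difference also included 0 at limits of 50 and 150 bp, at −log10 q of at least 10, and for the outer 10%. It lay above 0 without a width limit, at a width limit of 600 bp and at an overlap of at least 50%. Within classes of summed pileup, added after the data were seen, width turned to 61.7 bp and background was 8.64 points. Within classes of width, also added, fold was -0.74 and pileup -0.77. The causes of the other moves were not tested.

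Taking values from a single list (width -29.0 to -7.00 bp, fold -0.54 to -0.48) repeats the values of each list and is no check of stability, since the members still rest on the summits of both lists and the outer share cannot change. The count of displaced regions called by the binomial test was 0 under both of its alternatives, while those with an unadjusted exact binomial p under 0.05 went from 27 to 42 with the expected ratio from the lowest backgrounds. Without a replicate no summit distance can be had, so the number of members has no such value. Motifs at summits and the nearest genes were not run, since no genome of the build was used. No paired analysis was possible because the lists are of ChIP alone, and input could not be compared as a group. Displaced summits had as few as 15 fragments in replicate 1 and 12 in replicate 2; the part of depth in summit placement was not tested.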
